A study of Homo sapiens with 12 samples.

Results

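The genes described are the 3 fibrinogen chain genes FGA, FGB and FGG, the fibrinogen-like gene FGL1, the plasminogen gene PLG, its activator genes PLAT and PLAU, the activator receptor gene PLAUR, and the fibrinolysis inhibitor gene CPB2. They are 9 of the 26485 genes of the deposited count table, and each was found there by its symbol. The set was chosen with measured values in view: PLG was high in all 3 lines labelled as ZHX3-depleted, and FGB was highest in the line Z9. Levels and differences that involve the Empty line, and those that set Z9 against another line, are therefore given for the 9 genes as a description. How many of them passed the threshold used for all genes is printed beside the share of all genes that did, and nothing is read from it. Where the wells of lines are said below not to overlap, the share of all genes that separate so was not computed. Nothing is read from such a separation either. The comparison of Z5 with Z2 took no part in the choice and was tested.

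RNA was sequenced from HepG2, an established human hepatoma line, in 12 libraries of 4 stable lines. The Empty line is labelled wild type and carried an empty CRISPR construct, and the lines Z2, Z5 and Z9 are labelled ZHX3-depleted and carried the constructs sgZHX3-2, sgZHX3-5 and sgZHX3-9. All 4 lines, Empty included, went through lipofection and blasticidin selection and were grown in low-glucose medium with serum, and each gave 3 wells (a, b and c). A line is 1 selected culture per construct, so n = 3 wells measures the spread within a line, and what a construct did cannot be told apart from the history of its line.

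The mRNA of ZHX3 itself lay between 32.5 and 34.9 CPM (counts per 1000000 of the TMM-scaled library size) in the labelled lines and between 32.7 and 33.5 CPM in Empty, so the groups are defined by their labels and not by the ZHX3 mRNA level. All 8 hepatocyte markers looked for (ALB, TTR, APOA1 and others) were present, with a summed level of 50828 to 57693 CPM. Endothelial markers summed to 16.9 to 24.3 CPM, with KDR at 0 counts in every library. Others of them were present, ESAM with 518 to 883 and PECAM1 with 236 to 360 counts per library. CDH5 had 19 to 40 counts in Empty wells and 60 to 123 in labelled wells. Fibroblast markers summed to 21.8 to 32.7 CPM, with DCN at 0 and PDGFRB at 1098 to 1760 counts. Platelet markers summed to 0.659 to 1.28 CPM, with GP9, PF4 and PPBP at 0. Leukocyte markers summed to 1592 to 2164 CPM, nearly all of it LYZ, while PTPRC and CD3E had fewer than 10 counts.

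Fibrinogen is the soluble plasma protein that thrombin cuts into fibrin, the mesh of a blood clot. Hepatocytes assemble it from pairs of an Aα, a Bβ and a γ chain, made from FGA, FGB and FGG, and its synthesis belongs to the acute-phase response driven by IL6. Plasminogen, also made by hepatocytes, is the inactive precursor of plasmin, which dissolves fibrin. Tissue-type and urokinase-type plasminogen activators cut it to plasmin, and CPB2, once activated, trims from fibrin the lysines to which plasminogen binds.

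The 3 chain genes lie together on chromosome 4 in the order FGB, FGA, FGG, within 49.7 kb of RefSeq assembly GRCh38.p14. FGB is at chr4:154562980-154572807 on the plus strand, FGA at chr4:154583126-154590742 and FGG at chr4:154604136-154612656, both on the minus strand. PLG is at chr6:160702193-160754097 on the plus strand. FGL1 and CPB2 differed more from Empty than the chain genes did, averaged over the labelled lines (0.66 and 0.57 against 0.26 to 0.46, log2). Their stretches are not printed. Those around the start sites of the 3 chain genes and PLG are shown. Each runs from 250 bases before to 50 bases after the first RefSeq start of the gene, in the direction of transcription and credited to RefSeq GRCh38.p14. The windows are chr4:154590693-154590992 (minus strand) for FGA, chr4:154562730-154563029 (plus) for FGB, chr4:154612607-154612906 (minus) for FGG and chr6:160701943-160702242 (plus) for PLG. Capitals mark matches, on either strand, to the short motifs named below, and to no others.
FGA: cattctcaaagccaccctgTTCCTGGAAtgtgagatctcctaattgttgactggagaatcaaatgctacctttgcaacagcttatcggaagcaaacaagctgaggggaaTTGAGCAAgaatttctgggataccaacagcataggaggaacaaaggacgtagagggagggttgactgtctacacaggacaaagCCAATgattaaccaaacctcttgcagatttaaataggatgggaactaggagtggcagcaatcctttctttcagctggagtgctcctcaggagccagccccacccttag
FGB: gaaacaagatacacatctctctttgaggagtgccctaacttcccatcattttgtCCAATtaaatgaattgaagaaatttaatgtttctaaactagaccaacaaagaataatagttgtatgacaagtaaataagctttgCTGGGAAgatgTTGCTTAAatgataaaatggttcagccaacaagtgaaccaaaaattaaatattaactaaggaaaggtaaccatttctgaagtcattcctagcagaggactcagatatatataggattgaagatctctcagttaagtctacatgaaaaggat
FGG: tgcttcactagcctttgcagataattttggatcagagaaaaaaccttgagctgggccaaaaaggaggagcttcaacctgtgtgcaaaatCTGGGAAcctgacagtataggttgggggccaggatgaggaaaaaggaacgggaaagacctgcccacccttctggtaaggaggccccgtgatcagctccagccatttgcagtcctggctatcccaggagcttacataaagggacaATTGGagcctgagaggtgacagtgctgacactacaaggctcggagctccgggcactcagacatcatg
PLG: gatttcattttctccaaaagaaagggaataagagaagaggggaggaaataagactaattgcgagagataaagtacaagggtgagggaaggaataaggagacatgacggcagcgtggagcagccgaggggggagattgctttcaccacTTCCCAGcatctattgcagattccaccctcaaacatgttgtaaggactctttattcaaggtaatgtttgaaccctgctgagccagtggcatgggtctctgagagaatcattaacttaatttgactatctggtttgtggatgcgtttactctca
The motifs searched were the IL6 response motif CTGGGAA, the STAT motif TTCNNNGAA, the C/EBP motif TTGCNNAA, the NF-Y motif CCAAT and the TATA box TATAAA, and no 2 matches overlap in the windows shown. Motifs of the liver transcription factor HNF1 were planned but not searched, so small letters do not mean that a window lacks them. FGA holds a STAT motif at base -231 from the start, a C/EBP motif at -141 and a CCAAT at -58. FGB holds a C/EBP motif at -101, an IL6 response motif at -112 and a CCAAT at -196. FGG holds the IL6 response motif at -161 and a reversed CCAAT at -17. PLG holds the IL6 response motif on the reverse strand at -103, which lies at -154 from its other RefSeq start, further downstream. The window of that other start, which is not printed, also holds a reversed CCAAT at base 22.

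The IL6 response motif, shared by FGB, FGG and PLG, occurs in 10.9% of the 35116 RefSeq windows of 300 bases. STAT motifs occur in 7.66%, C/EBP motifs in 10.5%, CCAAT in 34.6% and TATAAA, which none of the windows of these genes holds, in 11.5%. Of the remaining genes with a window, CPB2 held a STAT, a C/EBP and a CCAAT match, PLAU a CCAAT in one window and a C/EBP match in the other, and PLAUR a C/EBP match. These matches describe letters only, and no binding was measured.

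The mRNA of PLG was low in the Empty line and 11-fold to 13.4-fold higher in the labelled lines, the widest difference of the 9 genes. Its level was 1.69, 1.13 and 2.18 CPM in Empty a, b and c, from 86, 65 and 142 counts. It was 16.8, 19.3 and 19.4 CPM in Z2, 20.5, 23.4 and 23.3 CPM in Z5, and 22.4, 21.4 and 21.2 CPM in Z9. The lowest labelled well (Z2 a) was thus far above the highest Empty well (Empty c), and the groups did not overlap. Relative to Empty, PLG was 11-fold higher in Z2 (95% interval 8.93 to 13.6), 13.4-fold in Z5 (10.8 to 16.5) and 12.9-fold in Z9 (10.5 to 15.9). Averaged over the labelled lines, the difference was 3.63 ± 0.13 on the log2 scale (SE). Without Empty c, which has the highest of the Empty values, it was 3.89. With each library left out in turn it ran from 3.41 to 3.89. In a bulk library, more cells that make an mRNA and more of it per cell cannot be told apart.

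**Figure D1:**
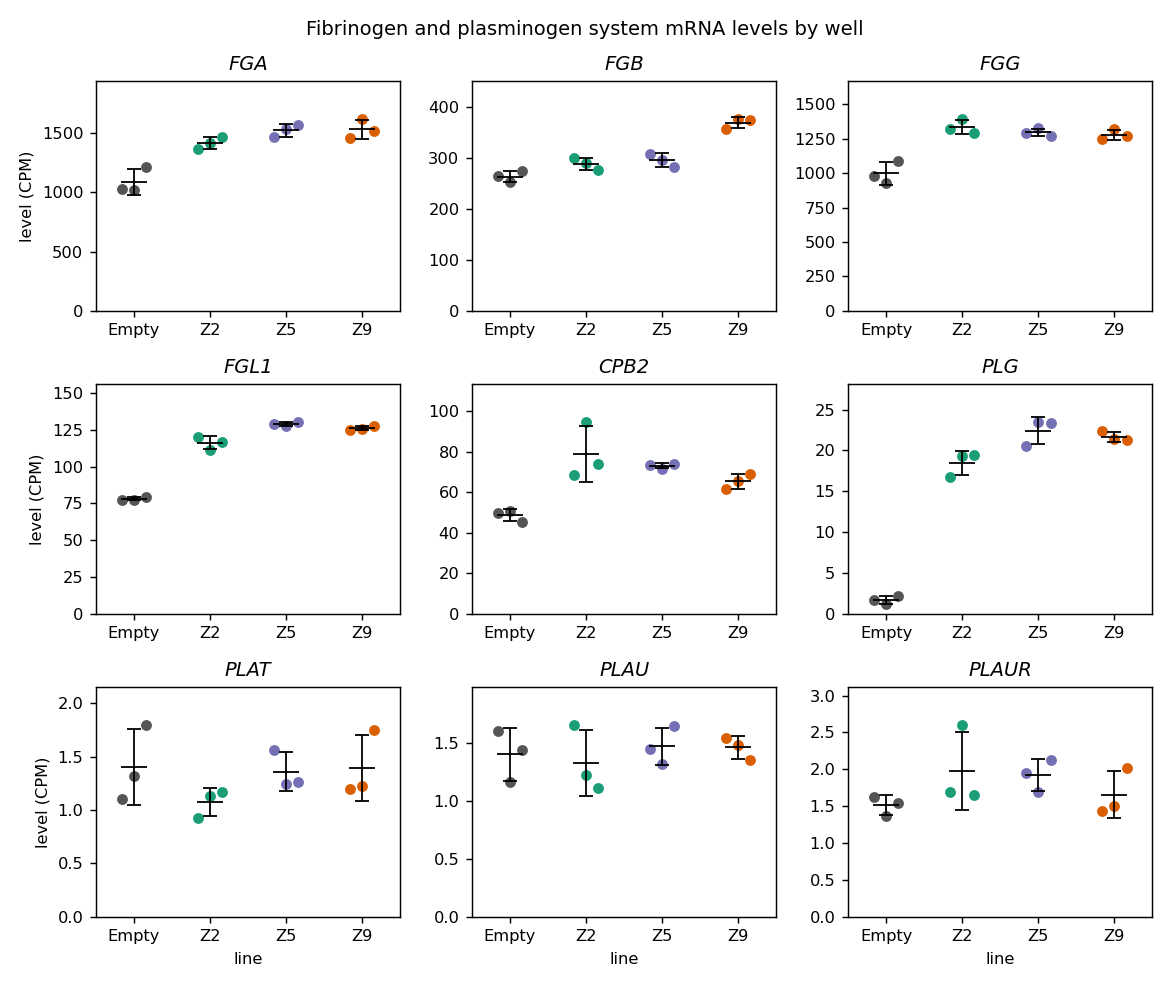
Levels of the 9 genes in CPM (y axes from 0, each with its own range) in the 3 wells of each line (points), with the mean and SD per line (bars). PLG lies at 1.13 to 2.18 CPM in Empty wells and at 16.8 to 23.4 CPM in the wells of the labelled lines, FGB stands highest in Z9, and PLAT, PLAU and PLAUR overlap between Empty and the labelled lines.

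Several genes resemble PLG in sequence, and how reads that map to more than 1 place were counted is not given in the sources used here. The counts of these copies were small: LPA, the apolipoprotein(a) gene, had 5 in all 12 libraries together, the pseudogene PLGLA had 11, and PLGLB1 and PLGLB2 had none. The related pseudogene LPAL2 had 37 counts over the 3 Empty wells and 72, 46 and 57 over those of Z2, Z5 and Z9. PLG had 293 counts in Empty against 2926, 3745 and 3627 in these lines.

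The Aα chain gene FGA and the γ chain gene FGG were moderately higher in all 3 labelled lines than in Empty. FGA measured 1027, 1022 and 1213 CPM in Empty, 1364, 1416 and 1473 CPM in Z2, 1466, 1537 and 1572 CPM in Z5, and 1462, 1619 and 1519 CPM in Z9. All 9 labelled wells were above all 3 Empty wells, and Empty c was the highest of the Empty wells. How many of all genes separate in this way was not computed. Fold differences were 1.30 in Z2 (95% interval 1.18 to 1.44), 1.40 in Z5 (1.27 to 1.55) and 1.41 in Z9 (1.28 to 1.56). FGG measured 979, 927 and 1090 CPM in Empty, 1322, 1392 and 1295 CPM in Z2, 1292, 1327 and 1272 CPM in Z5, and 1245, 1319 and 1270 CPM in Z9. Again no labelled well came down to the Empty range, and the 3 labelled lines overlapped each other. The fold difference of FGG was 1.34 in Z2 (95% interval 1.23 to 1.46), 1.30 in Z5 (1.19 to 1.42) and 1.28 in Z9 (1.17 to 1.40).

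The Bβ chain gene FGB followed another order. It measured 264, 251 and 273 CPM in Empty, 299, 289 and 275 CPM in Z2, 308, 295 and 281 CPM in Z5, and 356, 375 and 375 CPM in Z9. The Z2 and Z5 wells lay just above the Empty wells and overlapped each other, and the Z9 wells lay above all others. Fold differences from Empty were 1.10 in Z2 (95% interval 1.01 to 1.18), 1.12 in Z5 (1.04 to 1.21) and 1.40 in Z9 (1.30 to 1.52). Z9 exceeded Z2 by 0.36 ± 0.054 and Z5 by 0.32 ± 0.054 on the log2 scale (SE). These last differences are among the values by which the set was chosen.

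**Figure D2:**
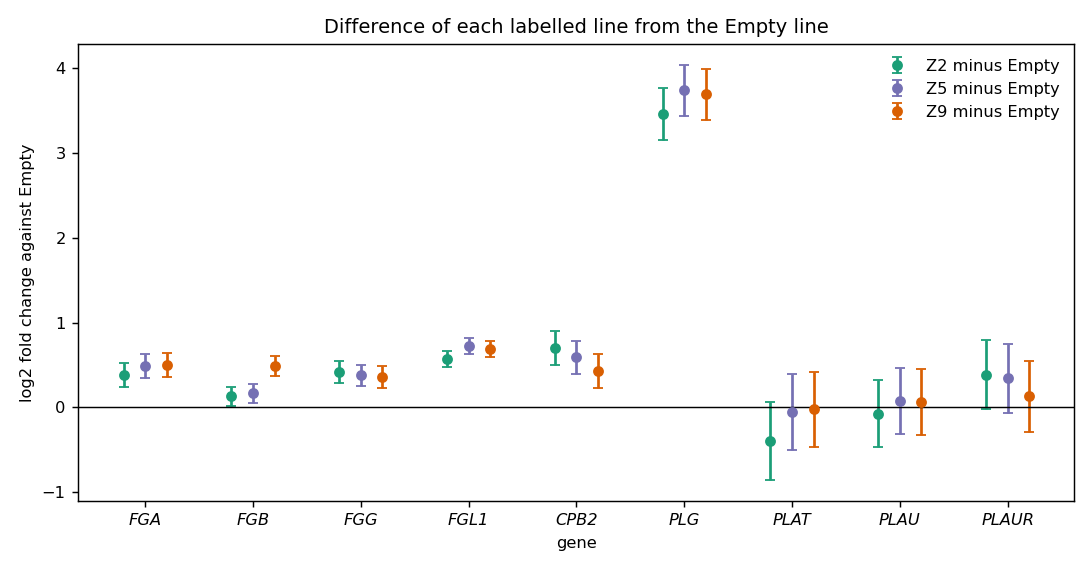
Log2 fold change of each gene in Z2, Z5 and Z9 against Empty (points, edgeR fit over 12 libraries) with its 95% interval (bars). PLG lies at 3.46 to 3.74, FGA, FGG, FGL1 and CPB2 between 0.36 and 0.72, FGB at 0.13, 0.17 and 0.49, and the intervals of PLAT, PLAU and PLAUR include 0.

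The ratio of 2 chains within a well does not depend on how libraries are scaled. The log2 ratio of FGB to FGA was -2.05 ± 0.098 in Empty and -2.30 ± 0.12, -2.37 ± 0.12 and -2.06 ± 0.048 in Z2, Z5 and Z9 (mean ± SD, n = 3 wells). Z2 and Z5 wells thus held less FGB mRNA per FGA mRNA than Empty wells did, with no overlap, and Z9 wells lay within the Empty range. Within Empty, Z2 and Z5 this ratio fell from well a to b to c (-1.96, -2.03 and -2.15 in Empty), so part of these SDs follows the well letter. The log2 ratio of FGG to FGA was -0.12 ± 0.046 in Empty and -0.085 ± 0.087 in Z2, which overlapped. It was -0.23 ± 0.064 in Z5 and -0.26 ± 0.032 in Z9, where all wells were below the Empty wells. For FGB to FGG the means were -1.92 in Empty and -2.22, -2.14 and -1.79 in Z2, Z5 and Z9. The chains therefore did not keep 1 ratio across the lines: FGB was low relative to the other chains in Z2 and Z5, and FGG was low relative to FGA in Z5 and Z9.

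**Figure D3:**
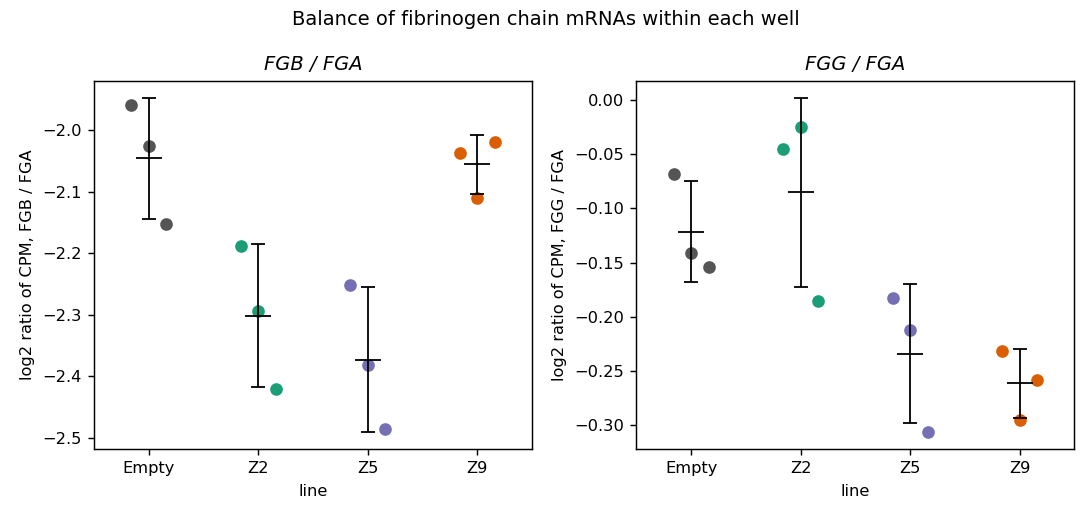
Log2 ratio of CPM of FGB to FGA (left) and of FGG to FGA (right) in each well (points), with mean and SD per line (bars, n = 3 wells). FGB to FGA averages -2.30 in Z2 and -2.37 in Z5 against -2.05 in Empty and -2.06 in Z9, and FGG to FGA is lowest in Z5 and Z9; the y axes do not start at 0.

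Together the 3 chains took 0.234% of all counts in Empty and 0.302%, 0.310% and 0.322% in Z2, Z5 and Z9 (means of 3 wells). Per exon length, with union exon lengths of GENCODE release 29 that may differ from the authors' annotation, FGG was the most abundant of the 9 genes in every line. Its level was 474 CPM per kb in Empty and 607 to 635 CPM per kb in the labelled lines. FGA followed with 275 CPM per kb in Empty and 358 to 388, and FGB with 133 and 146 to 187. Of the per-length sum of the chains, FGB made up 15.1% in Empty and 12.8%, 13% and 15.8% in Z2, Z5 and Z9. The Bβ chain mRNA was therefore the least abundant of the chains in all 4 lines on this scale.

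FGL1 encodes a secreted liver protein with a fibrinogen-like domain that lacks the parts needed for clotting and is known as a ligand of the immune receptor LAG3. It lies outside the chain cluster, on chromosome 8. Its level was 77.4, 77.6 and 79.3 CPM in Empty, 120, 112 and 117 CPM in Z2, 129, 128 and 130 CPM in Z5, and 125, 126 and 128 CPM in Z9. The wells of a line lay close together and every labelled well exceeded every Empty well. Fold differences from Empty were 1.49 in Z2 (95% interval 1.39 to 1.59), 1.65 in Z5 (1.55 to 1.77) and 1.61 in Z9 (1.51 to 1.73). Per exon length its level was 31.2 CPM per kb in Empty and 46.4 to 51.5 CPM per kb in the other lines.

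CPB2, whose product is also called thrombin-activatable fibrinolysis inhibitor, measured 49.8, 50.6 and 45.2 CPM in Empty. It measured 68.3, 94.4 and 73.7 CPM in Z2, 73.3, 71.6 and 74.1 CPM in Z5, and 61.5, 65.4 and 69.1 CPM in Z9. No labelled well overlapped with Empty, and Z2 b stood above all other wells. The fold difference from Empty was 1.62 in Z2 (95% interval 1.42 to 1.86), 1.51 in Z5 (1.31 to 1.73) and 1.35 in Z9 (1.17 to 1.55). Without Z2 b the log2 difference of Z2 from Empty was 0.55 in place of 0.70.

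The activators and their receptor had few counts, and their wells overlapped between Empty and the labelled lines. PLAT, which encodes tissue-type plasminogen activator, ranged from 0.92 to 1.79 CPM over the 12 wells, with 49 to 117 counts per library. Its Empty wells, at 1.10, 1.32 and 1.79 CPM, overlapped the labelled wells, and the mean of the labelled lines was 0.896 times Empty (95% interval 0.697 to 1.15). PLAU, which encodes urokinase, ranged from 1.11 to 1.65 CPM with 59 to 94 counts, and its mean ratio was 1.02 (0.813 to 1.27). PLAUR, which encodes the urokinase receptor, ranged from 1.37 to 2.59 CPM with 78 to 135 counts, and its mean ratio was 1.22 (0.964 to 1.54). The highest PLAUR value was again that of Z2 b. At these counts a difference smaller than the intervals was not detectable, so the intervals and not the missed threshold describe what can be said of these 3 genes.

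Per exon length PLG was the lowest of the 9 genes in Empty, at 0.484 CPM per kb, with an SD of 0.153 (n = 3). PLAT (0.509 ± 0.129) and PLAU (0.522 ± 0.0841) did not differ from it beyond that spread, and PLAUR was at 0.689 ± 0.0603. In the labelled lines PLG was sixth, at 5.38 CPM per kb in Z2, 6.53 in Z5 and 6.31 in Z9. It stayed below CPB2, which had 28.3 CPM per kb in Empty and 38.1 to 45.9 in the labelled lines. The activators and the receptor were between 0.389 and 0.900 CPM per kb in the labelled lines.

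Over all genes, edgeR's quasi-likelihood test called 23.9% of the 15289 genes tested for Z2 against Empty, 15% for Z5 and 19.2% for Z9, at an adjusted p under 0.05. For the mean of the labelled lines against Empty it called 25.6%, of which 13% of the tested genes were higher and 12.6% lower. All 9 genes of the set passed the filter on low counts. By the same threshold 5, 6, 6 and 6 of them were called in those 4 comparisons, all higher, but these comparisons chose the set and nothing is read from the counts. FGB is the gene not called in Z2, and its call in Z5 was lost under most of the other settings. For Z9 against Z2 the test called 5.17% of all genes, and for Z9 against Z5 it called 1.52%, with FGB the 1 member called in each. Those comparisons, too, took part in the choice. Without Z5 c the second count was 0, and without Z2 a or with DESeq2 the first was 2.

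Z5 and Z2 are the pair that took no part in the choice. Over the transcriptome edgeR called 1 of the 15289 genes, or 0.00654%, against 1571 at an unadjusted p under 0.05. None of the 9 genes was called by edgeR or DESeq2, and 2 of them had an unadjusted p under 0.05. These were FGL1, at 0.15 ± 0.045 (log2, SE; adjusted p = 0.408 by edgeR), and PLG, at 0.28 ± 0.11 (adjusted p = 0.449). All 3 Z5 wells lay above all 3 Z2 wells for both, and also for PLAT (0.34 ± 0.22, adjusted p = 0.585). The share of all genes whose wells separate in this way was not computed, so nothing is read from it. The 95% interval of the ratio of Z5 to Z2 was 1.04 to 1.18 for FGL1 and 1.03 to 1.43 for PLG. For the chains it was 0.975 to 1.19 for FGA, 0.946 to 1.11 for FGB and 0.889 to 1.06 for FGG. For CPB2 it was 0.809 to 1.06, and for PLAT, PLAU and PLAUR it spanned 0.919 to 1.75, 0.841 to 1.46 and 0.735 to 1.28. These intervals bound the difference between the lines and do not show that they were alike.

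To place the 9 genes among their partners, 126 other genes of clotting, fibrinolysis and fibrinogen synthesis in 9 lists were tested for the mean of the labelled lines against Empty. Of these, 107 passed the filter, 31 rose, 12 fell and 64 did not pass the test. The median log2 difference was 0.090, against 0.0029 over all genes. The 43 called genes are 40.2% of those tested, against 25.6% of all genes. The lists were chosen with earlier results of these data known, so nothing is read from these shares. With the wells of a line summed and the lines as units, Empty is 1 unit, and fewer list genes and fewer of all genes were called. Among the genes named in what follows, the calls then lost were those of SERPINA5, LRP1, ITGB1, PLGRKT, F11, KLKB1, F5, F10, VKORC1, GGCX, FIBCD1, ANGPTL6, DNAJB9, NR3C1, FOXA1, NFYA, STAT3, SERPINA1 and ORM2.

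Among the inhibitors of plasmin and of its activators, 3 of 7 tested genes rose, none fell, and the median was 0.15. SERPINE2, which encodes protease nexin 1, an inhibitor of thrombin, urokinase and plasmin, rose by 1.82 ± 0.13 (log2, SE; adjusted p = 3.19e-06 by edgeR). It measured 34.7 to 41.5 CPM in Empty, 120 to 175 CPM in Z2, 109 to 138 CPM in Z5 and 110 to 141 CPM in Z9, with no overlap. SERPING1, the C1 inhibitor gene, rose by 0.48 ± 0.083, and SERPINA5, the protein C inhibitor gene, by 0.16 ± 0.043. SERPINA5 was no longer called without Empty b. For SERPINF2, the α2-antiplasmin gene, the difference was 0.12 (adjusted p = 0.209, but 0.00889 without Z2 b). SERPINI1 at 0.15 and A2M at -0.074 did not pass either. In single lines against Empty, SERPINI1 was called higher in Z2 (0.41) but not called in Z5 (0.25) or Z9 (-0.22).

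Among plasminogen receptors and surface cofactors, 4 of 10 tested genes rose, 1 fell, and the median was 0.22. VTN, which encodes vitronectin, an adhesive plasma protein, rose by 0.74 ± 0.052 (adjusted p = 1.83e-08 by edgeR). Its level was 203 ± 12.1 CPM in Empty and 326 ± 23.3, 323 ± 12.9 and 367 ± 11.5 in Z2, Z5 and Z9. The gelatinase gene MMP2 rose by 1.52 ± 0.21 from a mean of 0.530 CPM in Empty. LRP1, a clearance receptor for activator complexes, rose by 0.31 ± 0.048 and the integrin β1 gene ITGB1 by 0.17 ± 0.055. PLGRKT, a plasminogen receptor with a C-terminal lysine, fell by 0.25 ± 0.090 with an adjusted p of 0.0461 by edgeR. ITGB1 was not called without any 1 of the Empty wells. PLGRKT was not called without any 1 of Empty a, b and c, Z2 c, Z5 b and c, and Z9 a and b. LRP2 (0.78), ANXA2 (0.26), S100A10 (-0.12), MMP9 (-0.16) and ENO1 (-0.016) did not pass for the mean of the labelled lines. In single lines against Empty, LRP2 (1.45) and ANXA2 (0.46) were called higher in Z2, and S100A10 (-0.27) lower in Z9.

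In the contact system and related proteases, 3 of 8 tested genes rose and 3 fell, with a median of 0.12. KNG1, the kininogen gene, fell by 0.70 ± 0.13, from 3.35 ± 0.042 CPM in Empty to 1.95 to 2.24 CPM in the line means. HGFAC, the HGF activator gene, fell by 0.46 ± 0.078, and HPN, which encodes the membrane protease hepsin, rose by 0.32 ± 0.074. F11, the factor XI gene, rose by 0.18 ± 0.056 but was not called without Empty a, Empty b or Z5 c. HABP2 (-2.26 ± 0.25) and KLKB1 (0.71 ± 0.20) were the other called genes, both at low levels and named after their values were seen. KLKB1, the plasma prekallikrein gene, was not called without Empty b or Empty c.

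Of 12 tested clotting factor and cross-linking genes, 4 rose, 1 fell, and the median was 0.14. TGM2, which encodes tissue transglutaminase, rose by 1.00 ± 0.13, from 35.4 ± 2.16 CPM in Empty to 81.0 ± 12.4, 75.3 ± 11.8 and 58.6 ± 9.07 in Z2, Z5 and Z9. F5 (0.21 ± 0.051), F10 (0.26 ± 0.071, named after its values were seen and not called without Empty a) and VKORC1 (0.17 ± 0.039), the vitamin K epoxide reductase gene, rose. GGCX, the γ-carboxylase that uses vitamin K, fell by 0.30 ± 0.070. The prothrombin gene F2 did not pass, at 637 ± 6.57 CPM in Empty and 663 ± 56.2, 700 ± 11.4 and 709 ± 19.0 CPM in Z2, Z5 and Z9. Of 8 anticoagulant genes only PROCR, the protein C receptor gene, was called, at 1.97 ± 0.27 from a low level and named after its values were seen. The other 7 did not pass for the mean of the labelled lines, and the median of the 8 was 0.093. In single lines against Empty, TFPI was called higher in Z2 (0.23) and Z5 (0.20) but not called in Z9 (-0.12). TFPI2 was called higher in Z2 (0.92) and PROS1 lower in Z9 (-0.22). These genes, too, were named after their values were seen.

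Of 9 tested genes with a fibrinogen-like domain other than the members, 4 rose, none fell, and the median was 0.47. They were TNXB (0.47 ± 0.083), ANGPTL4 (0.68 ± 0.12), FIBCD1 (0.95 ± 0.19) and ANGPTL6 (0.66 ± 0.21), the last named after its values were seen. ANGPTL4, an inhibitor of lipoprotein lipase, went from 12.6 ± 1.17 CPM in Empty to 22.8 ± 2.87, 21.0 ± 4.37 and 17.5 ± 1.54 in Z2, Z5 and Z9. ANGPTL6 was not called without Empty a, Empty b, Z2 c, Z5 c or Z9 c.

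Fibrinogen is folded and exported through the endoplasmic reticulum, and the genes of that route differed little. Of 15 tested genes only DNAJB9, a chaperone of misfolded proteins, rose (0.27 ± 0.049), none fell, and the median was -0.014. The differences of the 14 others, among them the chaperone gene HSPA5 (-0.081) and the cargo receptor gene LMAN1 (-0.019), ranged from -0.17 to 0.11. In Z9 alone against Empty, SYVN1, named after its values were seen, was called higher (0.27).

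Of 23 genes for liver transcription factors and IL6 signalling, 4 rose and 4 fell, with a median of -0.048. SOCS3, a feedback inhibitor induced by STAT3, rose by 0.75 ± 0.13, from 2.02 ± 0.292 CPM in Empty to 3.88 ± 0.516, 3.59 ± 0.670 and 2.82 ± 0.106 in Z2, Z5 and Z9. NR3C1, the glucocorticoid receptor gene, rose by 0.25 ± 0.052. FOXA1 fell by 0.24 ± 0.051, and NFYA, a subunit of the factor that binds CCAAT, by 0.18 ± 0.041, the latter not called without Empty a. CEBPA and STAT3 were named after their values were seen. CEBPA fell by 0.59 ± 0.12, from 115 ± 8.29 CPM in Empty to 64.2 ± 16.5, 81.8 ± 7.49 and 83.4 ± 3.04 in Z2, Z5 and Z9. STAT3 rose by 0.11 ± 0.041. It was not called under DESeq2 size factors or without any 1 of Empty a, b and c, Z2 c, Z5 a, b and c, and Z9 b and c.

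Of 15 tested genes for other acute-phase plasma proteins, 7 rose, 3 fell, and the median was 0.28. SERPINA3, the α1-antichymotrypsin gene, rose by 0.75 ± 0.067, from 722 ± 89.9 CPM in Empty to 1339 ± 107, 1188 ± 63.5 and 1137 ± 32.6 in Z2, Z5 and Z9. Haptoglobin (HP, 0.64 ± 0.066) and complement C3 (0.48 ± 0.061) rose as well. The haem-binding protein gene HPX fell by 0.87 ± 0.11, from 19.0 ± 2.08 CPM in Empty to 8.65 ± 2.00, 10.7 ± 1.19 and 12.1 ± 1.61 in Z2, Z5 and Z9. The other genes that fell, ORM2 (-0.19) and HAMP (-0.53), were named after their values were seen. ORM2 was not called without Empty c, and HAMP was not called without Empty a or Empty b. CP (0.62 ± 0.084), CFB (0.41 ± 0.063), ITIH3 (0.41 ± 0.084) and SERPINA1 (0.28 ± 0.064) also rose. They, too, were named after their values were seen, and SERPINA1 was not called without Empty a. What these differences share with those of the chain genes was not tested.

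**Figure D4:**
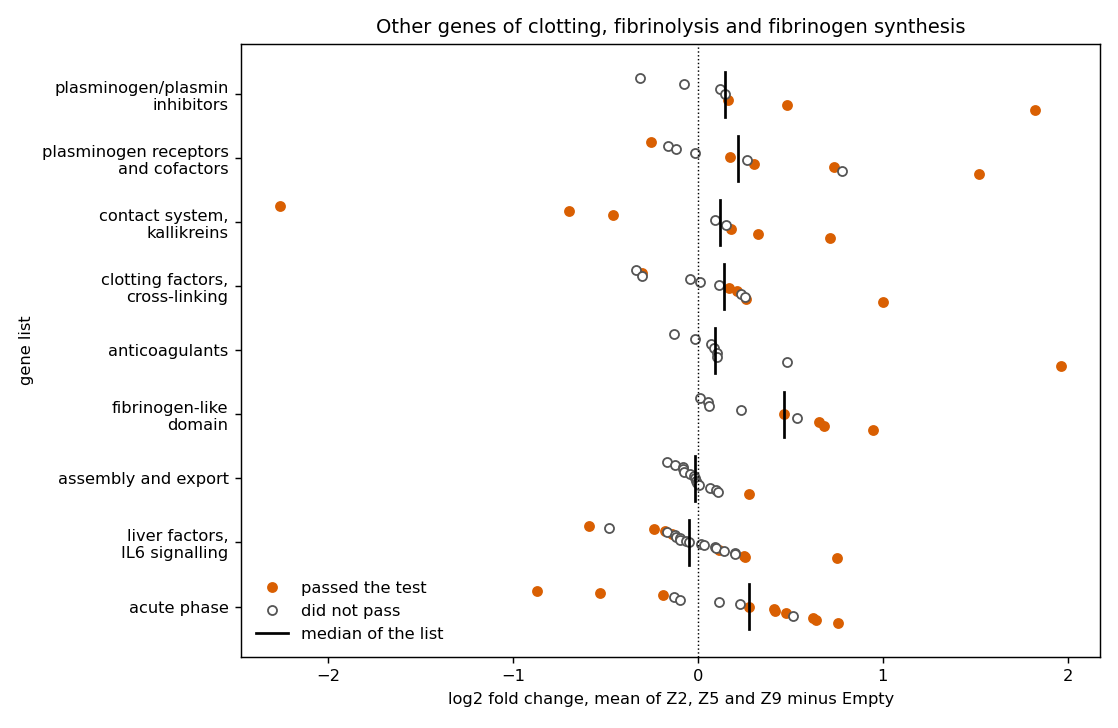
Log2 fold change (x axis, mean of Z2, Z5 and Z9 minus Empty, edgeR) of the 107 tested genes of the 9 lists (rows), none of them among the 9 genes described; filled points passed the test at an adjusted p under 0.05 and black bars are list medians. The medians lie between -0.048 and 0.47, and SERPINE2 (1.82), MMP2 (1.52) and TGM2 (1.00) are among the points furthest to the right.

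Genes near the members were tested to see whether the differences extended along the chromosome. Within 1 Mb of PLG 20 other genes were in the table and 14 were tested. None rose and 2 fell, ACAT2 at 923 kb (-0.36 ± 0.055, adjusted p = 0.000134 by edgeR) and MRPL18 at 904 kb (-0.19 ± 0.055, adjusted p = 0.0188). MRPL18 was not called without Empty a or Empty b, and neither was called with lines as units. The median of the 14 was -0.0069. LPA, 37.9 kb from PLG, had too few counts to test. The nearest tested genes were LPAL2 at 191 kb (0.70 ± 0.31, adjusted p = 0.107 by edgeR, from a level under 1 CPM) and MAP3K4 at 238 kb (-0.058 ± 0.046). Around the fibrinogen cluster 10 other genes were in the table, 3 were tested, and none rose or fell. The nearest, PLRG1, lies 12.6 kb from FGB, and its difference was -0.058 ± 0.044 (adjusted p = 0.364 by edgeR).

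**Figure D5:**
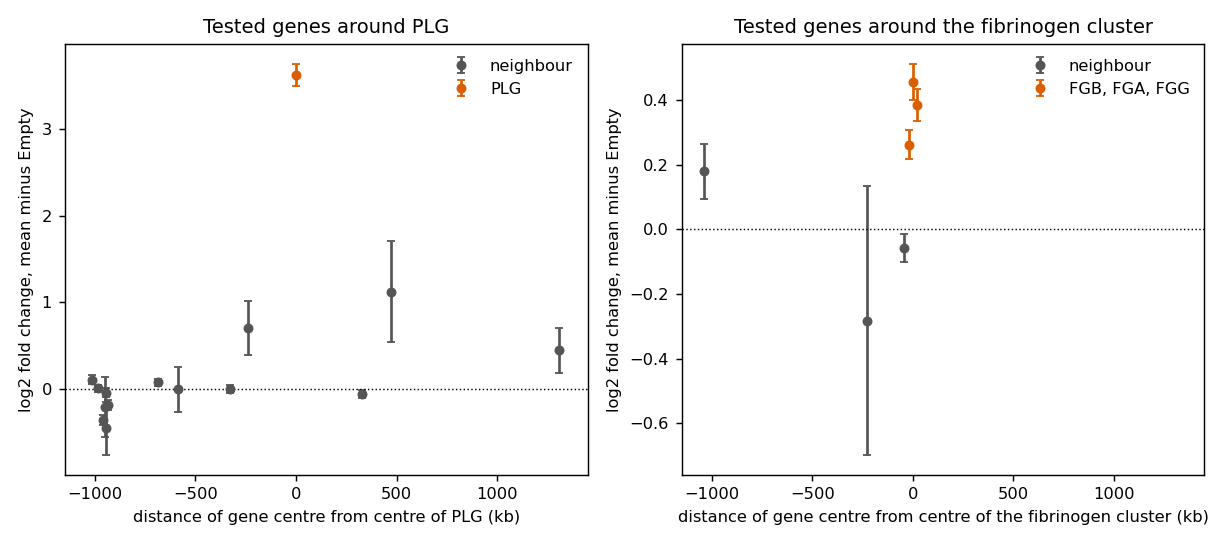
Log2 fold change (y axis, mean of the labelled lines minus Empty, bars are SE) of tested genes around PLG (left) and around the fibrinogen cluster (right), by the distance of the gene's centre from the centre of the locus in kb (x axis). PLG stands at 3.63 while the median of its 14 tested neighbours is -0.0069, and the chain genes lie between 0.26 and 0.46 with PLRG1 beside them at -0.058.

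Likeness to PLG and FGB was measured across the 12 libraries as the root mean square distance between centred log2 CPM values, over the 11664 genes whose mean reached 1 log2 CPM. The 5 genes nearest to PLG were APCDD1 (0.419), NDUFA4L2 (0.468), IGFBP2 (0.576), PLA2G16 (0.666) and EREG (0.715), where PLG's own root mean square was 1.60. IGFBP2 averaged 6.50 CPM in Empty and 36.4, 39.0 and 39.8 CPM in Z2, Z5 and Z9. APCDD1 averaged 0.477 CPM in Empty and 3.29, 3.52 and 3.31 CPM. Nearest to FGB, with its own root mean square of 0.186, were PVRL4 (0.0669), PLEKHG4 (0.0694), ZFPM1 (0.0763), JMY (0.0779) and ADAMTSL2 (0.0789). PVRL4 averaged 7.32 CPM in Empty and 8.36, 8.21 and 10.3 in Z2, Z5 and Z9. These genes were picked for their pattern over the same libraries, so the values describe likeness only.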

How the data were processed

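The deposited table holds whole-number read counts per gene symbol, made by the authors with STAR, featureCounts and the hg38 genome per the submitters' processing notes; the sources used here do not give versions, annotation, strand setting or the treatment of multimapped reads. Without a known strand setting, reads of overlapping or antisense genes cannot be told apart. Samples were grouped by title into Empty, Z2, Z5 and Z9, with 3 wells each; totals ranged from 50864744 to 65428204 counts.

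Counts were analysed in R 4.3.3 with edgeR 4.0.16: after filterByExpr, which kept 15289 genes, and TMM scaling, all 12 libraries entered 1 robust quasi-likelihood model of 4 group means (8 residual degrees of freedom, common biological coefficient of variation 6.96%). Benjamini-Hochberg adjustment ran over all genes tested, with a threshold of 0.05. CPM use TMM-scaled totals, and the likeness values add a prior count of 2. The test was checked on counts drawn with known changes. No well repeated another: within lines, chi-square per degree of freedom was 6.01 to 43.0. In RefSeq GRCh38.p14, 23758 current symbols and 1562 unique synonyms matched, and 1165 table symbols did not.

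The 9 members and the gene lists were chosen with earlier results of these data known. Named list genes are all of the inhibitors and receptors, and up to 4 per other list with the smallest adjusted p and a mean of at least 1 log2 CPM; others are marked in the text. Some list genes counted in the lists are not reported here by name. Alternatives were DESeq2 1.42.0 size factors and its Wald test, no TMM, other filters on low counts, the well letter as a block, lines as units, and each library left out in turn.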

Additional observations from a re-analysis of the deposited data

Results flagged for a closer look

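Among the list genes and neighbours tested, some differences from Empty differed in size or sign between Z9 and another labelled line. All that passed edgeR's test of the difference between the 2 lines are given. Z9 was lower than both other lines for the protein S gene PROS1 (log2 difference -0.33 from Z2, adjusted p = 0.00173, and -0.28 from Z5, adjusted p = 0.00466) and for TFPI, an inhibitor of the tissue factor pathway (-0.35, adjusted p = 0.0100, and -0.33, adjusted p = 0.0150). The same held for the transcription factor gene CEBPD (-0.40, adjusted p = 0.00584, and -0.38, adjusted p = 0.00915). Against Empty, the differences in Z2, Z5 and Z9 were 0.11, 0.064 and -0.22 for PROS1. They were 0.23, 0.20 and -0.12 for TFPI, and 0.29, 0.26 and -0.12 for CEBPD. Of the neighbours of PLG, ACAT2 (-0.49, adjusted p = 0.00175, and -0.66, adjusted p = 0.000133) and SOD2 (-0.26, adjusted p = 0.0294, and -0.30, adjusted p = 0.0258) were lower in Z9 as well.

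Against Z2 alone, Z9 was lower for the inhibitor gene SERPINI1 (-0.62, adjusted p = 0.0214), the receptor genes LRP2 (-1.45, adjusted p = 0.0379) and ITGB1 (-0.26, adjusted p = 0.0357), S100A10 (-0.25, adjusted p = 0.0499), the fibrinogen-domain gene FIBCD1 (-1.02, adjusted p = 0.0179), the ceruloplasmin gene CP (-0.43, adjusted p = 0.0300) and SERPINA10 (-0.20, adjusted p = 0.0499). KLKB1 (0.82, adjusted p = 0.0439) and F12 (0.41, adjusted p = 0.0479) were higher in Z9 than in Z2. Against Z5, Z9 was lower for ANGPTL1 (-0.56, adjusted p = 0.0262). With 3 wells per line, no single well was tested as an outlier, and each line is 1 culture.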

How the results depend on the processing

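Under the planned settings, the counts of the 9 genes called against Empty stayed at 5 to 6 (5 with lines as units for the mean of the labelled lines, without FGB). For Z9 against Z2, 2 were called by DESeq2's Wald test in place of 1, and 1 to 2 with a library left out. For Z9 against Z5 the leave-one-out count ran from 0 to 1, and for Z5 against Z2 it was 0 throughout. List genes called went from 43 to 22 with lines as units, where Empty is 1 unit, and from 32 to 52 with a library left out. Among uncalled differences that were tested, leaving out a library turned the sign of MMP9, which ran from -0.32 to 0.014 (above 0 without Empty a), ENO1, from -0.037 to 0.010 (above 0 without Empty b and, at 0.00047, without Z2 a), and, for Z5 against Z2, PLAUR, from -0.16 to 0.20 (above 0 without Z2 b and, at 0.039, without Z5 b), and CPB2, from -0.20 to 0.041 (above 0 without Z2 b). Of the differences given as a description, those of PLAT (-0.30 to 0.060) and PLAU (-0.097 to 0.12) for the mean of the labelled lines also took either sign. So did several of PLAT, PLAU and PLAUR for single lines. FGA took either sign only for Z9 against Z5 (-0.033 to 0.041), and its differences from Empty stayed above 0 in every line. The cause was not tested. Adjusted p-values of calls lost with lines as units ran from 0.0502 (LRP1) to 0.570 (ACAT2). Nothing in the labels ties wells of 1 letter together, and not every same-letter pair deviated together: correlations ran from -0.101 to 0.173, above 0.1 in 5 of 18 pairs, against 2 of 36 pairs of different letters. The letter was therefore not used as a block in the fit reported, and whether wells of 1 letter share something is not settled. With the letter as a replicate block, 6 members and 49 list genes were called for the mean of the lines, SERPINI1 and ANXA2 gained calls, HAMP lost its call, and calls over all genes went from 790 to 1512 for Z9 against Z2 and from 232 to 488 for Z9 against Z5. DESeq2's Wald test called 1509 and 495 genes there, and 9 in place of 1 for Z5 against Z2. Depth limits PLAT, PLAU and PLAUR, with 49 to 135 counts per library.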
